A study of Mus musculus with 8 samples.

Results

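Expression of 10 genes of the Z-disc and its stress sensors was examined in gastrocnemius muscle of muscle NOX4-deficient and control mice. The genes were *Csrp3*, *Ankrd1*, *Ankrd2*, *Ankrd23*, *Xirp1*, *Xirp2*, *Tcap*, *Ldb3*, *Myoz1* and *Myoz2*, taken by symbol from the 32390 rows of the count table. They were chosen by the fold change between genotypes in these same libraries, which was already known, so that their fold changes are a description and carry no p-value. Bulk RNA-seq was done on 4 *Mck*-Cre;*Nox4* fl/fl mice and on 4 *Nox4* fl/fl controls without Cre, all males of 21 months kept on chow and placed by the labels in batch 1. Both genotypes carry the floxed *Nox4* alleles and differ in the Cre transgene, whose promoter, that of the muscle creatine kinase gene *Mck*, is active in striated muscle, so that heart as well as skeletal muscle can recombine. No group carried Cre without the floxed alleles, so that the Cre transgene and the loss of *Nox4* cannot be told apart. The mice with Cre are called NOX4-deficient.

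The Z-disc anchors the actin filaments of neighboring sarcomeres, the contractile units of muscle, and the ends of titin, the giant spring-like protein of the sarcomere. Besides its scaffold, it holds proteins that bind titin, actin or alpha-actinin and can also enter the nucleus when a fiber is stretched, damaged or denervated. Among these are the LIM-domain protein encoded by *Csrp3* (muscle LIM protein) and the muscle ankyrin repeat proteins encoded by *Ankrd1*, *Ankrd2* and *Ankrd23*. The Z-disc also holds the calsarcins encoded by *Myoz1* and *Myoz2*, which bind the phosphatase calcineurin.

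The libraries held between 16350548 and 19804661 counts on genes, and levels are given as CPM, counts scaled to a common library total with TMM, a correction for library composition. Genes that define skeletal muscle (*Acta1*, *Ckm*, *Myh4*, *Ttn* and *Des*) had at least 3296 CPM in every library. The deleted gene, *Nox4*, lay between 1.87 and 5.09 CPM in control and between 1.74 and 2.21 CPM in NOX4-deficient libraries, and the genotypes overlapped (log2 fold change -0.65, adjusted p = 0.207 by edgeR's quasi-likelihood test). Without control replicate 1, which held the most *Nox4*, the log2 fold change was -0.36. A row counted as called where its adjusted p was under 0.05 and its log2 fold change beyond 0.5 in either direction. By this rule 784 of 12725 rows tested were called, or 6.16%, with 443 lower (3.48%) and 341 higher (2.68%) in NOX4-deficient muscle. Without control replicate 4, 499 rows were called.

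Promoters are shown for the ankyrin repeat gene that was lower, its relative *Ankrd1*, and *Csrp3*, because *Ankrd2* was the row most like *Csrp3* across the 8 libraries. The RefSeq promoter table used here (build GRCm38.p6) was matched by symbol for 7 of the 10 genes, and the 250 bases before each start are printed from 5′ to 3′ along the gene's strand. The files themselves were made on GRCm39, so that the sequences were matched by symbol and not by position. Capitals mark matches on either strand to the E-box (CANNTG, bound by myogenic factors such as MyoD), the M-CAT motif (CATTCC, bound by TEAD factors) or the core of the antioxidant response element (TGACNNNGC, bound by NFE2L2). No MEF2 site or CArG box (bound by SRF) was found in these 4 windows.
*Csrp3*, first start (chr7:48848052-48848301, minus strand): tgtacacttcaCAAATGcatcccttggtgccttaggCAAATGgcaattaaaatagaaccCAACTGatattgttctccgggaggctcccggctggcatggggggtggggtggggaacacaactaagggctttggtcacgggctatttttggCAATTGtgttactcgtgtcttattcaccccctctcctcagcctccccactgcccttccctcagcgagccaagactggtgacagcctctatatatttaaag
*Csrp3*, second start (chr7:48843672-48843921, minus strand): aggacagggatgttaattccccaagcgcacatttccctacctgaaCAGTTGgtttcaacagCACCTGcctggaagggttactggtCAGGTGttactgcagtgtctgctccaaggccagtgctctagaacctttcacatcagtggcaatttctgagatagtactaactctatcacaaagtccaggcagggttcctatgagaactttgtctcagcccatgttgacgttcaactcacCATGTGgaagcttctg
*Ankrd2* (chr19:42035777-42036026, plus strand): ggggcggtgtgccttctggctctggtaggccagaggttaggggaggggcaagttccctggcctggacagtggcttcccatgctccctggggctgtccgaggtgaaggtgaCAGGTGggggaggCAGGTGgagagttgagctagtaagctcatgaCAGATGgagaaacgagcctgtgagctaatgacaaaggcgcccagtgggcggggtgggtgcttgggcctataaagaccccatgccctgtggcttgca
*Ankrd1* (chr19:36119845-36120094, minus strand): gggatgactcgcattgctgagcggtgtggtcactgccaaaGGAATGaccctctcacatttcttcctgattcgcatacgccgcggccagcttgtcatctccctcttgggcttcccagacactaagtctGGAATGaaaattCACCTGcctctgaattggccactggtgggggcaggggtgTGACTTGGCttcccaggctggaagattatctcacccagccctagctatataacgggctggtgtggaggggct
Each *Csrp3* window held 4 E-boxes and the *Ankrd2* window held 3, and neither gene had an M-CAT motif or an antioxidant response element core here. The *Ankrd1* window held 1 E-box, 2 M-CAT motifs and 1 antioxidant response element core. Of 32841 windows of the same length in the same table, 66.2% held an E-box, 12.6% an M-CAT motif and 10.2% an antioxidant response element core. The second of the *Ankrd23* windows, which are not printed, also held 1 M-CAT motif and 1 antioxidant response element core. A MEF2 site stood in the windows of *Myoz2* and *Xirp2* (2.92% of all windows) and a CArG box in both windows of *Ldb3* (1.47% of all windows). These matches are descriptions of the letters and not of binding.

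Of the 10 genes, all of which passed the filter on low counts, *Csrp3*, *Ankrd2* and *Xirp1* were called lower in NOX4-deficient muscle, where 3.48% of all rows were called lower. By edgeR none was called higher, and none was higher at an unadjusted p under 0.05 or with DESeq2 or pydeseq2 (background 2.68%). The genotypes did not overlap in these 3 genes and in *Ldb3*, against 16.2% of all rows tested (8.97% lower and 7.2% higher). At an adjusted p under 0.05 with no minimum fold change, the same 3 genes passed by edgeR, against 7.75% of all rows. With DESeq2 and pydeseq2 *Ldb3* also passed that threshold. Nothing is read from these shares, since the contrast was known when the genes were chosen.

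**Figure D1:**
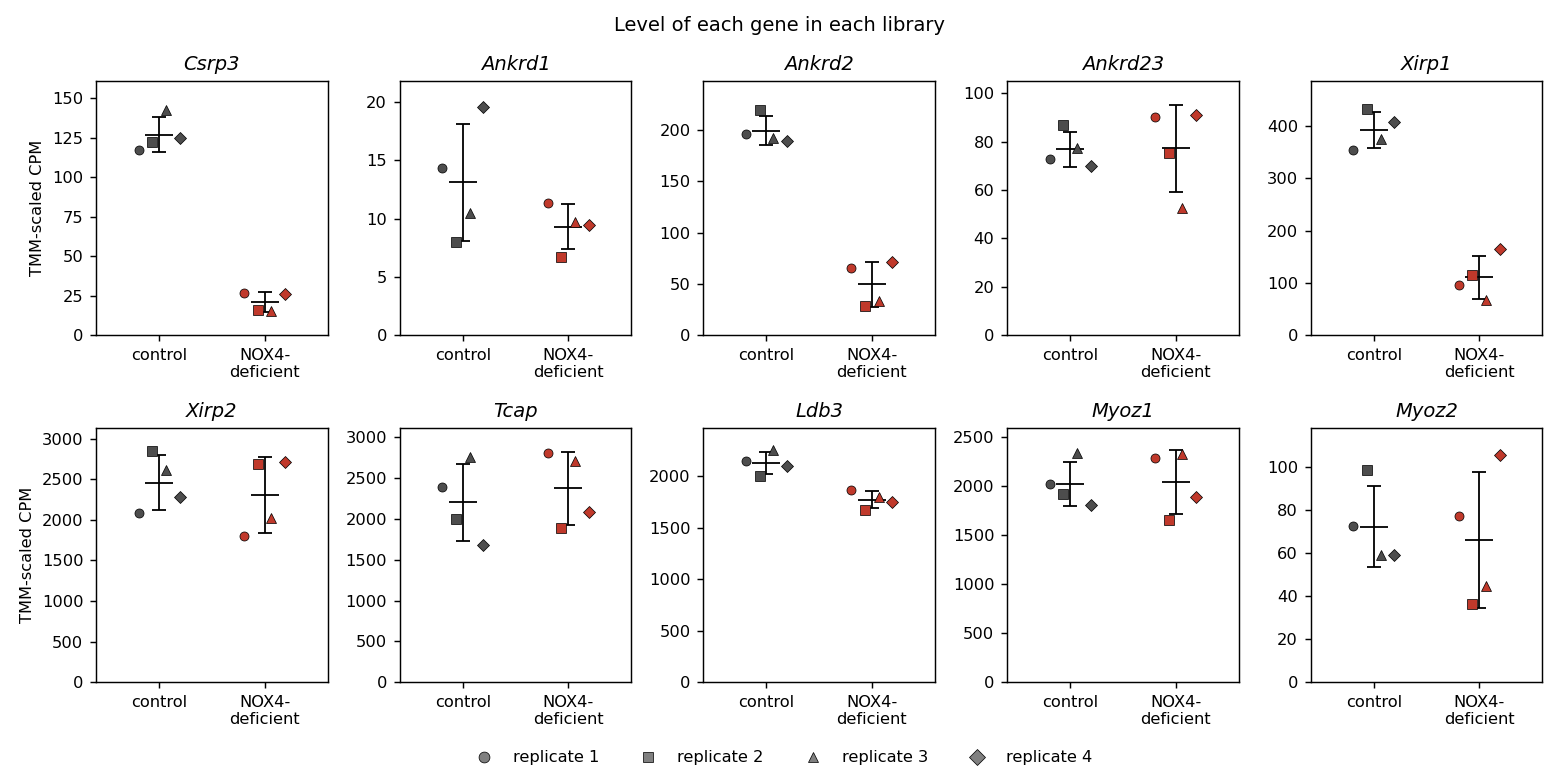
Level of the 10 genes in each library, as TMM-scaled CPM from a zero baseline, for control (grey) and NOX4-deficient (red) mice. Marker shapes give the replicate, and bars the mean and SD of 4 mice. In *Csrp3*, *Ankrd2* and *Xirp1* every NOX4-deficient library lies far below every control library, and in *Ldb3* slightly below.

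*Csrp3*, whose muscle LIM protein binds telethonin and alpha-actinin at the Z-disc, had 117, 123, 143 and 125 CPM in the control mice numbered 1 to 4. Its values in the NOX4-deficient mice, in the same order, were 26.4, 16.1, 14.98 and 26.3 CPM. The highest NOX4-deficient library thus lay far under the lowest control library. The means were 127 ± 11.0 CPM and 20.9 ± 6.24 CPM (SD, n = 4 mice per genotype), a 6.06-fold lower level. The log2 fold change was -2.60 (standard error, SE, 0.19), the most negative of the 10 genes, and it lay between -2.72 and -2.46 with each library left out in turn. In whole tissue, fewer cells that express a gene and less RNA per cell cannot be told apart, and this holds for every value here.

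The 3 muscle ankyrin repeat genes, whose proteins bind titin in the elastic part of the sarcomere, differed from each other. *Ankrd2*, which is known to be more abundant in slow than in fast fibers, had 196, 220, 193 and 190 CPM in the control libraries. In the NOX4-deficient libraries it had 65.2, 28.0, 33.6 and 71.7 CPM. The control libraries were close together, and replicates 1 and 4 of the NOX4-deficient mice lay above replicates 2 and 3. The level fell from 200 ± 13.9 CPM to 49.6 ± 22.0 CPM (SD, 4 mice per genotype), a log2 fold change of -2.01 (SE 0.28).
*Ankrd1*, which encodes the cardiac ankyrin repeat protein and is known to be induced by stretch and denervation, had 14.4, 8.03, 10.5 and 19.5 CPM in control libraries. It had 11.3, 6.68, 9.72 and 9.44 CPM in NOX4-deficient libraries. It was the scarcest of the 10 genes, with 132 to 376 counts per library, and its genotypes overlapped. Its log2 fold change was -0.50 (SE 0.25), with 1 NOX4-deficient library below every control library. Without control replicate 4, which held the most *Ankrd1*, the log2 fold change was -0.24.
*Ankrd23*, the diabetes-related ankyrin repeat gene, had 73.1, 86.9, 77.3 and 70.03 CPM in control libraries and 90.2, 75.4, 52.7 and 90.9 CPM in NOX4-deficient libraries. The means were almost equal, at 76.8 ± 7.33 CPM and 77.3 ± 17.9 CPM (SD, 4 mice per genotype), while NOX4-deficient replicate 3 lay below and replicates 1 and 4 above all control libraries. The log2 fold change was 0.01 (SE 0.16).

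The genes of the Xin actin-binding repeat proteins also differed from each other. *Xirp1*, which encodes Xin and is known to rise in damaged fibers, had 354, 432, 376 and 408 CPM in control libraries. It had 96.1, 116, 67.0 and 165 CPM in NOX4-deficient libraries, so that the genotypes were well separated. The level fell from 393 ± 34.5 CPM to 111 ± 41.0 CPM (SD, 4 mice per genotype), a log2 fold change of -1.83 (SE 0.22) that lay between -2.07 and -1.64 with each library left out. *Xirp2*, whose protein binds filamentous actin and alpha-actinin, had 2082, 2844, 2611 and 2280 CPM in control libraries. In NOX4-deficient libraries it had 1797, 2690, 2023 and 2706 CPM, which overlapped the controls. Its log2 fold change was -0.09 (SE 0.15). *Xirp2* overlaps a long noncoding RNA gene, and without strand their reads cannot be told apart.

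*Tcap*, *Ldb3*, *Myoz1* and *Myoz2*, which encode structural proteins of the Z-disc and partners of its scaffold, were not called. *Tcap* encodes telethonin, the cap that joins the ends of titin molecules. It had 2393, 1997, 2762 and 1679 CPM in control libraries and 2808, 1895, 2708 and 2090 CPM in NOX4-deficient libraries. The groups overlapped, with a log2 fold change of 0.11 (SE 0.17), the most positive of the 10 genes. *Ldb3*, which encodes the PDZ and LIM protein ZASP (Cypher), had 2143, 2000, 2254 and 2103 CPM in control libraries. In NOX4-deficient libraries it had 1868, 1672, 1800 and 1752 CPM, all below the controls. The difference was small, at 83.4% of the control mean, with a log2 fold change of -0.26 (SE 0.10), and *Ldb3* was not called.
*Myoz1*, the calsarcin gene of fast fibers, had 2020, 1919, 2330 and 1800 CPM in control and 2280, 1652, 2328 and 1881 CPM in NOX4-deficient libraries. Its log2 fold change was 0.01 (SE 0.13). *Myoz2*, the calsarcin gene of slow fibers and heart, had 72.6, 98.6, 59.2 and 58.9 CPM in control libraries. In NOX4-deficient libraries it ranged more widely, at 77.1, 36.4, 44.9 and 106 CPM, and both the lowest and the highest of the 8 values belonged to this genotype. Its log2 fold change was -0.13 (SE 0.32), with the largest SE of the 10 genes.

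**Figure D2:**
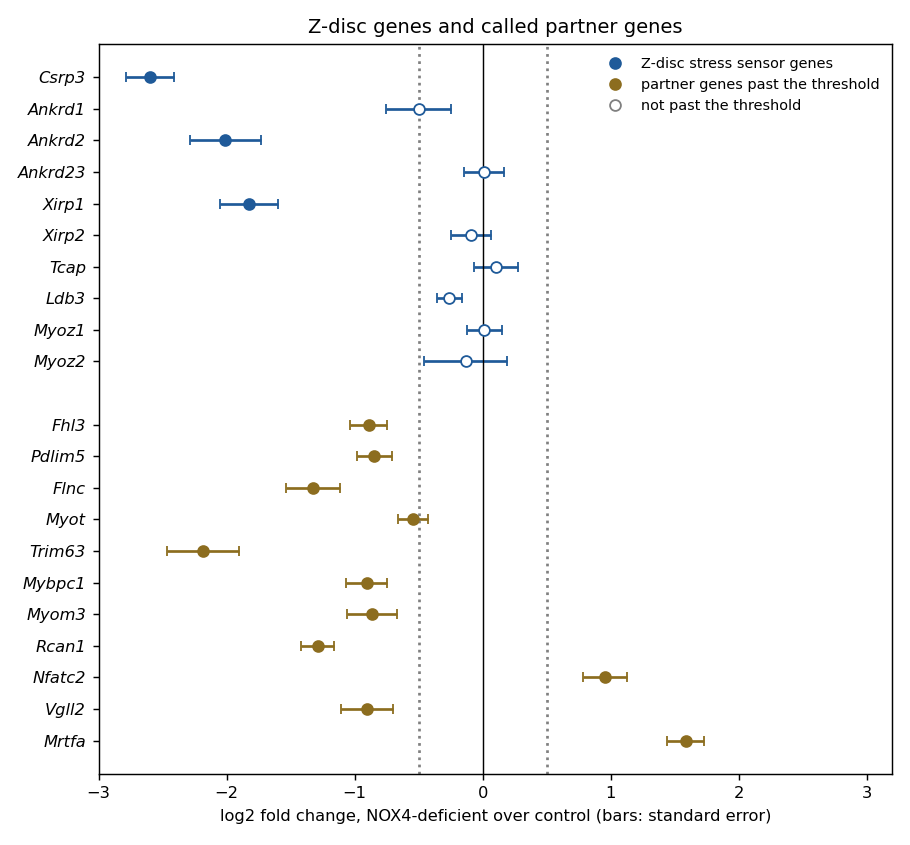
Log2 fold change (NOX4-deficient over control, bars of 1 standard error) of the 10 genes in blue and of the called partner genes that the naming rule took in brown. Open circles did not pass the call rule, and dotted lines mark 0.5 in either direction. *Csrp3*, *Ankrd2* and *Xirp1* lie between -2.60 and -1.83, while the other 7 genes lie between -0.50 and 0.11.

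Levels were compared between genes as CPM per kb of the longest GENCODE M21 transcript. In control muscle the order was *Tcap* (2329 CPM per kb), *Myoz1* (1565), *Ldb3* (415), *Xirp2* (205), *Ankrd2* (175), *Csrp3* (141), *Xirp1* (67.3), *Myoz2* (61.2), *Ankrd23* (33.7) and *Ankrd1* (6.49). Ranges over the 4 control libraries overlapped for *Tcap* and *Myoz1*, for *Xirp2* and *Ankrd2*, and for *Xirp1* and *Myoz2*. The other neighbors in this order did not overlap. In NOX4-deficient muscle *Ankrd2* (43.6 CPM per kb), *Csrp3* (23.3) and *Xirp1* (19.0) stood below *Myoz2* (55.9), whereas their means stood above it in control muscle. In NOX4-deficient libraries *Ankrd2* (24.6 to 63.0 CPM per kb) overlapped *Myoz2* (30.8 to 89.5), while *Csrp3* (16.7 to 29.3) and *Xirp1* (11.5 to 28.2) lay below it.

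**Figure D3:**
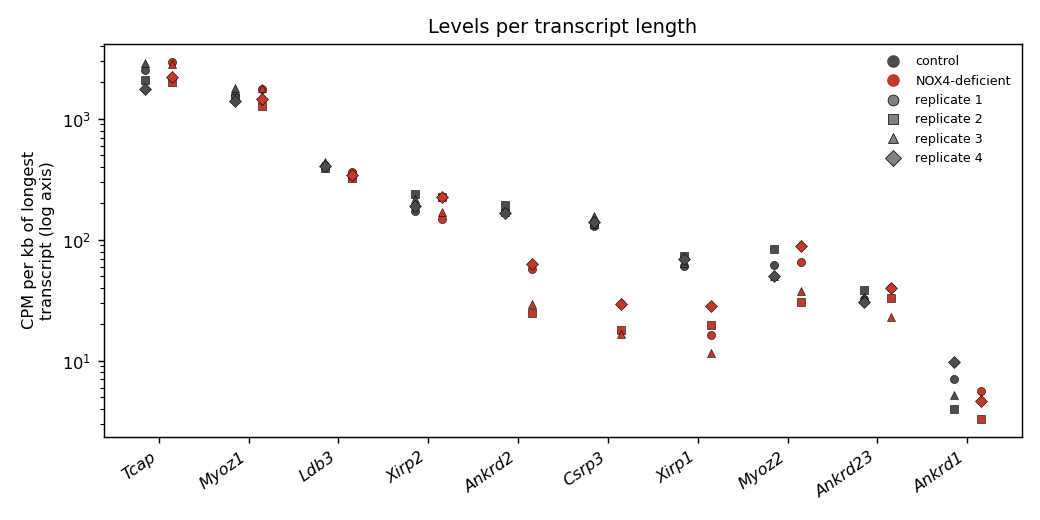
CPM per kb of the longest transcript, on a log axis, for each library of control (grey) and NOX4-deficient (red) mice, with genes in the order of the control mean. *Tcap* leads at 2329 CPM per kb and *Ankrd1* is last at 6.49 CPM per kb, and the red points of *Csrp3* and *Xirp1* lie below those of *Myoz2*, while those of *Ankrd2* overlap them.

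RNA of slow fibers was set beside these genes, because *Csrp3*, *Ankrd2* and *Myoz2* are known to be richer in slow fibers. The summed level of 11 slow-fiber markers was 466, 749, 408 and 348 CPM in control libraries. It was 464, 609, 736 and 1328 CPM in NOX4-deficient libraries. The direction was thus opposite to that of *Csrp3* and *Ankrd2*, but the genotypes overlapped (exact two-sided permutation test, p = 0.257, where 0.0286 is the smallest p that 4 mice against 4 allow). All 11 markers of this list had a positive log2 fold change (median 0.66, against 0.01 over all rows tested). By edgeR 2 of them were called higher (2.68% over all rows). These were *Casq2*, a calcium-binding protein of the sarcoplasmic reticulum (log2 fold change 1.02, SE 0.23, adjusted p = 0.0220), and *Myl6b*, a slow myosin light chain (0.69, SE 0.19, adjusted p = 0.0483). *Casq2* was not called without control replicate 3 (0.94) or 4 (0.90). *Myl6b* was not called without any 1 control library (0.63 to 0.77) or without NOX4-deficient replicate 1 (0.57) or 3 (0.64). The slow-fiber markers of highest mean CPM in control libraries, *Atp2a2* (0.61, adjusted p = 0.402) and *Myl2* (0.39, adjusted p = 0.465), were not called. Without NOX4-deficient replicate 4, their log2 fold changes were 0.18 and 0.03. *Mybpc1*, the slow myosin-binding protein C, stood in the list of titin and sarcomere genes and was called lower (-0.91, adjusted p = 0.00611 by edgeR). Genes tied to slow fibers thus did not all go up. The part of slow-fiber RNA in the levels of the Z-disc genes was not tested.

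**Figure D4:**
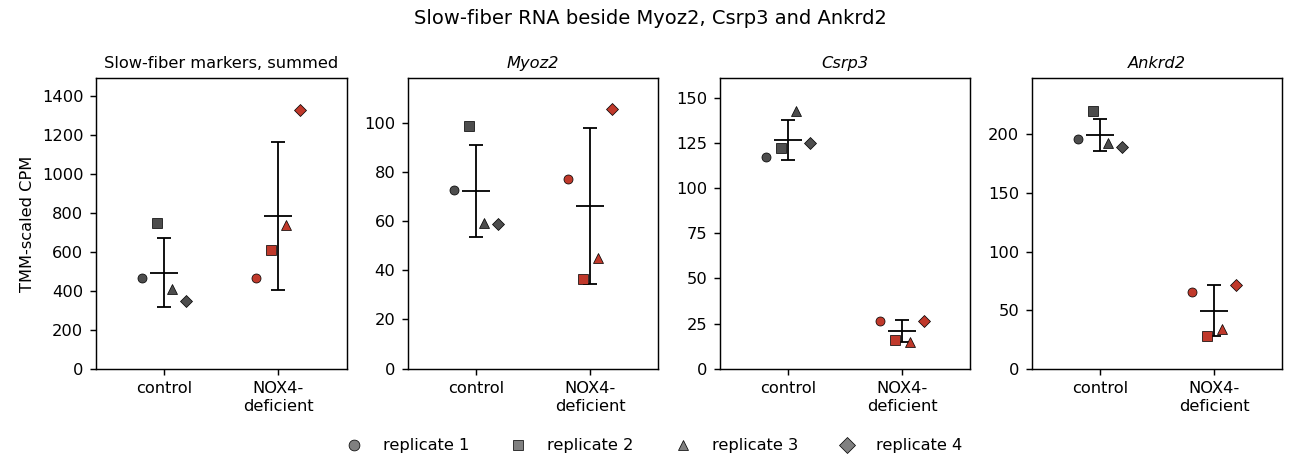
Summed CPM of 11 slow-fiber markers beside the CPM of *Myoz2*, *Csrp3* and *Ankrd2* in each library, with mean and SD of 4 mice per genotype. NOX4-deficient replicate 4 has the highest slow-fiber sum (1328 CPM) and the highest *Myoz2* (106 CPM), while its *Csrp3* and *Ankrd2* stay below every control library.

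The 11 fast-fiber markers summed to between 131410 and 161224 CPM in control and between 139769 and 167341 CPM in NOX4-deficient libraries (exact permutation p = 0.257). None was called by edgeR (6.16% over all rows), with 1 higher at an unadjusted p under 0.05 and 1 called higher by DESeq2 and by pydeseq2. *Myh4*, the myosin of the fastest fibers, had a log2 fold change of 0.09 (adjusted p = 0.710), and *Atp2a1*, the calcium pump of fast fibers, one of 0.04 (adjusted p = 0.869).
Markers of denervation and regeneration were included because *Csrp3*, *Ankrd1* and *Xirp1* are known to rise in such muscle. Their sum lay between 109 and 211 CPM in control and between 86.3 and 104 CPM in NOX4-deficient libraries, without overlap (exact permutation p = 0.0286, 0.143 adjusted over 10 marker lists). Of 11 genes tested, *Myh3*, the embryonic myosin, was called and was higher (1.96 ± 0.445 CPM to 4.77 ± 1.12 CPM, SD, 4 mice per genotype, adjusted p = 0.00807 by edgeR). Over all rows tested, 2.68% were called higher. No gene of the list was called lower by edgeR, although 4 were lower at an unadjusted p under 0.05 and 3 (*Gadd45a*, *Musk* and *Myog*) were called lower by DESeq2 and by pydeseq2. By edgeR 3 genes of the list were called without control replicate 3, and 2 without control replicate 2 or NOX4-deficient replicate 4. *Chrng*, the fetal subunit of the acetylcholine receptor, was at 0 in some libraries and was not tested. The part of denervation in the levels of the Z-disc genes was not tested.
Among lists for other cells, summed levels overlapped between genotypes for macrophages and leukocytes (11.1 to 29.2 CPM in control, 7.15 to 18.1 in NOX4-deficient), endothelium (188 to 232 and 199 to 224), fibroblasts and tendon (461 to 749 and 461 to 740), smooth muscle (104 to 151 and 106 to 143), adipocytes (14.3 to 78.5 and 19.7 to 73.3) and Schwann cells (72.6 to 98.7 and 73.5 to 178). The exact permutation p for these 6 lists lay between 0.314 and 0.971. The 3 blood markers found in the table summed to between 47.6 and 52.7 CPM in control and between 72.3 and 159 CPM in NOX4-deficient libraries, without overlap (exact permutation p = 0.0286, 0.143 adjusted over 10 lists). No marker of these lists was at 0 in any library. Their part in the results was not tested.

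The libraries also differed in how strongly long transcripts were represented. An index was formed as the mean centered log2 CPM of 1296 rows with a transcript of at least 6000 bases minus that of 1108 rows under 1500 bases. It was -0.16, 0.19, -0.03 and 0.23 in control replicates 1 to 4 and -0.54, 0.44, -0.32 and 0.19 in NOX4-deficient replicates 1 to 4. Replicates 1 and 3 thus lay below replicates 2 and 4 in both genotypes, with genotype means of 0.06 and -0.06. *Tcap*, with a transcript of 948 bases, was higher in replicates 1 and 3 than in replicates 2 and 4 of each genotype. *Myoz1* (1289 bases) had the same order. *Xirp2* (11979 bases) had its lowest value of each genotype in replicate 1. With the index as a term in the fit, the log2 fold changes of *Csrp3*, *Ankrd2* and *Xirp1* were -2.63, -2.06 and -1.77. The cause of the index was not tested.

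**Figure D5:**
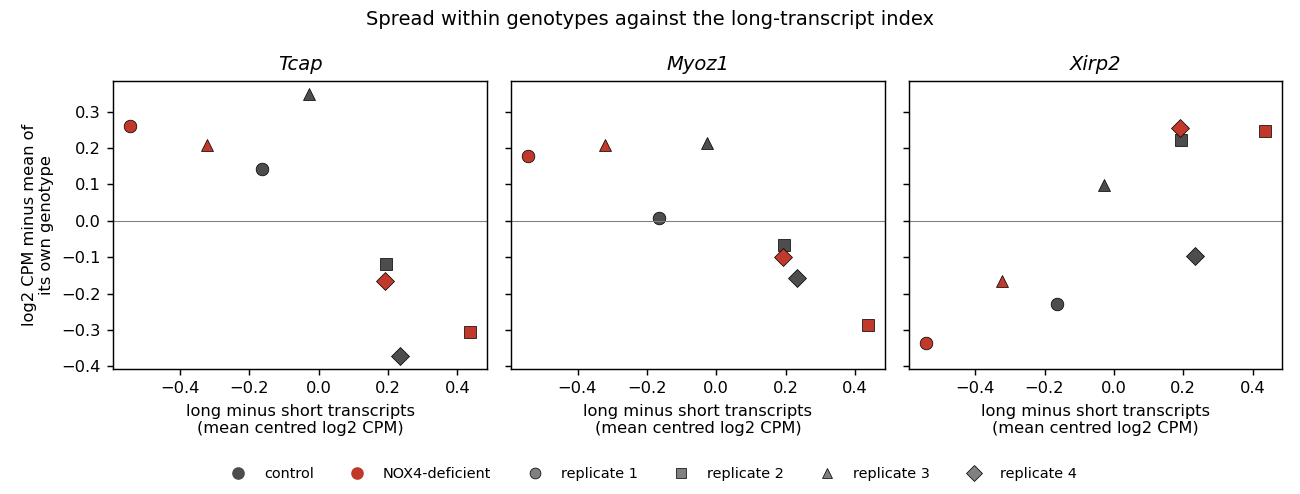
Log2 CPM of *Tcap*, *Myoz1* and *Xirp2*, each minus the mean of its own genotype, against the long-transcript index of the library (mean centered log2 CPM of long minus short transcripts). Grey points are control and red points NOX4-deficient libraries, 4 each, with *Tcap* and *Myoz1* higher in replicates 1 and 3, where the index is lower, than in replicates 2 and 4 of each genotype.

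Among 24 other genes of the Z-disc scaffold and of LIM-domain proteins, 5 (20.8%) were called lower, against 3.48% of all rows tested. None was called higher by edgeR, DESeq2 or pydeseq2, although 3 were higher at an unadjusted p under 0.05. Of these, *Myoz3* (0.41, adjusted p = 0.0217 by edgeR) and *Synpo2l* (0.49, adjusted p = 0.0347) missed only the minimum fold change. The median log2 fold change of the list was -0.22, against 0.01 over all rows. This and the other gene lists were chosen with earlier results of these data known, so that nothing is read from their shares or medians. *Flnc*, the muscle filamin that links actin filaments at the Z-disc and a partner of Xin, had 1061, 1211, 1304 and 1881 CPM in control libraries and 517, 619, 360 and 682 CPM in NOX4-deficient libraries. The genotypes did not overlap, and the log2 fold change was -1.32 (SE 0.21, adjusted p = 0.00456 by edgeR). The LIM-domain genes *Fhl3* (-0.89, SE 0.14, adjusted p = 0.00341) and *Pdlim5* (-0.85, SE 0.14, adjusted p = 0.00414) were lower by less.
*Myot*, which encodes the alpha-actinin and filamin partner myotilin, fell from 1521 ± 63.7 CPM to 1042 ± 159 CPM (SD, 4 mice per genotype, log2 fold change -0.55, adjusted p = 0.0176 by edgeR). It was not called without control replicate 3 (-0.51) or NOX4-deficient replicate 1 (-0.49) or 2 (-0.49). The fifth gene, named after its values were seen, was *Actn2*, the alpha-actinin of the Z-disc that all fiber types use, which fell from 847 ± 84.0 CPM to 457 ± 147 CPM (SD, 4 mice per genotype, adjusted p = 0.0184 by edgeR).

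Along titin and the rest of the sarcomere, 3 of 22 genes (13.6%) were called lower, against 3.48% of all rows tested. None was called higher by edgeR, DESeq2 or pydeseq2, although 4 were higher at an unadjusted p under 0.05. Of these, *Trim55* (0.38, adjusted p = 0.0340 by edgeR) missed only the minimum fold change. *Trim63* encodes MuRF1, a ubiquitin ligase that binds titin and marks sarcomere proteins for breakdown. It had 837, 563, 962 and 1658 CPM in control libraries and 227, 247, 219 and 192 CPM in NOX4-deficient libraries. The control libraries were widely spread and the NOX4-deficient ones close together, without overlap. The log2 fold change was -2.18 (SE 0.28, adjusted p = 0.00202 by edgeR), and -1.83 without control replicate 4. *Mybpc1*, the slow myosin-binding protein C (-0.91, adjusted p = 0.00611), and *Myom3*, an M-band protein (-0.86, adjusted p = 0.0220), were also lower. *Myom3* was not called without control replicate 2 (-0.81) or 4 (-0.86), or without NOX4-deficient replicate 1 (-0.88) or 2 (-0.77), or with the long-transcript index as a term (-0.84, adjusted p = 0.0638 by edgeR).

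Of 12 genes of calcineurin and its NFAT factors, the pathway that calsarcins restrain, 1 was called lower and 1 higher (3.48% and 2.68% over all rows). *Rcan1*, a calcineurin inhibitor that is itself an NFAT target, had 168, 218, 226 and 161 CPM in control and 82.1, 69.2, 83.0 and 82.2 CPM in NOX4-deficient libraries. Its log2 fold change was -1.29 (SE 0.13, adjusted p = 1.73e-04 by edgeR). *Nfatc2*, an NFAT factor, rose from 8.47 ± 0.667 CPM to 16.4 ± 4.28 CPM (SD, 4 mice per genotype, log2 fold change 0.96, adjusted p = 0.00733 by edgeR). The genotypes did not overlap in either gene.

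Of 18 genes of the mechanoresponsive YAP, TEAD and SRF factors, 1 was called lower and 1 higher (3.48% and 2.68% over all rows). *Mrtfa*, the actin-regulated coactivator of SRF, had 8.09, 11.0, 11.1 and 8.21 CPM in control libraries and 27.4, 33.3, 29.3 and 25.4 CPM in NOX4-deficient libraries. It was thus 3.01-fold higher, with no overlap and a log2 fold change of 1.59 (SE 0.14, adjusted p = 8.39e-05 by edgeR). *Vgll2*, a TEAD cofactor of muscle, was lower (log2 fold change -0.90, SE 0.21, adjusted p = 0.0222 by edgeR), with overlapping genotypes. It was not called without control replicate 1 (-0.83) or 2 (-0.78), or without NOX4-deficient replicate 1 (-0.87), 2 (-0.78) or 3 (-0.89).

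The rows most like *Csrp3* were found by the root-mean-square difference between centered log2 CPM profiles over the 8 libraries. The nearest of all rows tested was *Ankrd2*, with a difference of 0.33. *Tmem140*, a transmembrane protein gene, and *Srxn1*, the sulfiredoxin gene, came next, each with 0.35. *Xirp1* was the sixth row in this order, with 0.47, and the other Z-disc genes lay between 1.18 and 1.42. The rows most like *Tcap* were *Hscb*, *Nbdy* and *Eno3* (0.08, 0.08 and 0.09), and *Myoz1* differed from it by 0.12. The difference between genotypes is part of these distances, so that they describe the profiles only.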

How the data were processed

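Poly(A) RNA of whole gastrocnemius muscle was sequenced as unstranded paired-end libraries from 4 control and 4 NOX4-deficient mice. The authors deposited 1 table of raw gene counts, made with STAR in an nf-core pipeline on GRCm39 (STAR and build per the submitters' processing notes, the pipeline per the study's methods). No value column was left without a sample (0). No row took part that names no gene, and 11715 of 32390 rows held no count. The 10 genes and all gene lists were chosen with earlier results of these data known.

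Counts were tested with edgeR 4.0.16 in R 4.3.3 (TMM, filterByExpr, robust quasi-likelihood fit and test), with Benjamini-Hochberg adjustment over 12725 rows. Calls needed an adjusted p under 0.05 and a log2 fold change beyond 0.5 in either direction. Means ± SD are of CPM. DESeq2 1.42.0, pydeseq2 0.5.4, other scalings, filters and left-out libraries were alternatives, and the long-transcript index as a term was added after seeing the data. Summed markers were compared by exact two-sided permutation tests. The fits were tested on simulated data.

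All of the 10 genes were described. Of each partner list and of the denervation markers, the rule named the called genes of smallest p, up to 4 in each direction. Of the slow-fiber and of the fast-fiber markers it named the 2 of highest mean CPM in control and up to 3 called. It also named *Nox4* and the 3 rows nearest in profile to the genes of most negative and most positive fold change. Libraries held 16350548 to 19804661 counts, so that *Ankrd1* rested on 132 to 376 counts. Replicate libraries of 1 genotype differed by more than sampling noise (12 pairs, chi-square over its degrees of freedom 12.6 to 52.1). The labels number the mice, but p-values measure only the spread between these 8 samples.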

Additional observations from a re-analysis of the deposited data

Results flagged for a closer look

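In each genotype the highest or lowest of the 4 libraries was set against the others by Dixon's ratio (its gap to the nearest library over the whole range, against the 95% critical value). Of 78 groups of 4 libraries 6 passed it, where chance alone passes about 1 in 20, or 3.9 groups. *Pdlim5* was highest in control replicate 4 (1115 CPM against 822 CPM in the next library, ratio 0.878). *Rcan1* was lowest in NOX4-deficient replicate 2 (69.2 against 82.1 CPM, ratio 0.937). *Myl2*, a slow myosin light chain, was highest in NOX4-deficient replicate 4 (182 against 88.4 CPM, ratio 0.859). *Nox4* was lowest in NOX4-deficient replicate 1 (1.74 against 2.17 CPM, ratio 0.918). The summed fast-fiber markers were highest in control replicate 3 (161224 against 136205 CPM, ratio 0.839). The summed adipocyte markers were highest in control replicate 1 (78.5 against 24.8 CPM, ratio 0.837). None of the 10 Z-disc genes passed this ratio in either genotype.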

How the results depend on the processing

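*Csrp3*, *Ankrd2* and *Xirp1* were called lower under all 19 alternatives, of which 8 left out 1 library, and no other of the 10 genes was called under any. *Ldb3* had an adjusted p under 0.05 with DESeq2, with pydeseq2 and with the long-transcript index, and missed only the minimum fold change there. The signs of *Myoz2*, *Tcap*, *Ankrd23*, *Myoz1* and *Xirp2* changed among alternatives. All rows called ranged from 719 to 1009 with all libraries and from 499 to 712 with 1 left out. Slow-fiber markers called went from 2 to 1 with library size only, a fit that was not robust, the replicate block or the long-transcript index, and to between 0 and 2 with 1 library left out. Denervation markers called went from 1 to 3 without the robust fit and with the replicate block, to 2 with the index, to 4 with DESeq2 and pydeseq2, and to between 1 and 3 with 1 library left out. Fast-fiber markers called went from 0 to 1 with DESeq2, pydeseq2 or the replicate block, and to between 0 and 1 with 1 library left out. YAP, TEAD and SRF genes called went from 2 to 1 with the replicate block or the index, and to between 1 and 2 with 1 library left out. The log2 fold change of *Atp2a1* (0.04) lay between -0.0067 and 0.125 with 1 library left out, the lowest without NOX4-deficient replicate 3. Among named genes, *Vgll2* and *Casq2* were not called with the replicate block or the index, *Myom3* with the index, or *Myl6b* with library size only or without the robust fit. The cause of these changes was not tested. Under the replicate block 933 rows were called instead of 784. Deviations of same-numbered libraries correlated over 0.1 in 2 of 4 pairs (0.223, 0.147, 0.041 and 0.041), and 2 of 8 libraries correlated best with their own number, so that the numbers were not taken to pair the mice. Depth limits *Ankrd1* and *Nox4* most.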
